A study of Mus musculus with 4 samples.

Results

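Genes that make, load, receive, clear and break down the inhibitory transmitters GABA and glycine were followed on microarrays of mouse spinal cord and duodenum. The set holds 31 genes chosen by name for these roles, and each was found through the RefSeq accession that the scanner files give for a probe. A probe was matched for 30 of them, with 41 probes in all, among 32585 genes or identifiers on the array. Slc6a5 was not matched to a probe and is not analysed here. The animals were male mice 20 weeks old, IP6K2-KO mice and their IP6K2-WT littermates. According to the study's methods, the KO allele lacks the exon that encodes the kinase domain of IP6K2, an enzyme that makes inositol pyrophosphates. All animals had been moved from a standard to a purified diet for 1 week and were then fasted for 48 h, so the WT arrays carry the diet change and the fast too. The comparison asked how loss of IP6K2 affects transcripts of the 2 organs. There were 4 arrays, 1 for each organ and genotype, and the sources used here do not say whether an array holds the RNA of 1 animal or of several.

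GABA and glycine are the main inhibitory transmitters of the spinal cord, where both can be released by the same neuron. Glutamate decarboxylases make GABA, a shared vesicular transporter loads both transmitters, and plasma membrane transporters remove them from the synapse. GABA-A and glycine receptors are chloride channels of several subunits held at the synapse by the scaffold gephyrin, whereas GABA-B receptors are pairs of subunits coupled to G proteins. In the gut, GABA is a transmitter of some enteric neurons and is also found in cells of the epithelium.

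The bases before the start of transcription are printed for 4 genes that show the range of patterns across the organs. Gad2 (chr2:22622077-22622326) and Slc32a1 (chr2:158610508-158610757) had strong spinal cord signals and no duodenum signal above background for the brightest probe of each. Gabbr1 (chr17:37045716-37045965) and Gphn (chr12:78226405-78226654) were measured on all 4 arrays. The sequences are RefSeq's on assembly GRCm38.p6, each on the plus strand, 5′ to 3′, and hold the 250 bases before the start. Capitals mark CG dinucleotides, which read the same on both strands and do not overlap each other.
Gad2: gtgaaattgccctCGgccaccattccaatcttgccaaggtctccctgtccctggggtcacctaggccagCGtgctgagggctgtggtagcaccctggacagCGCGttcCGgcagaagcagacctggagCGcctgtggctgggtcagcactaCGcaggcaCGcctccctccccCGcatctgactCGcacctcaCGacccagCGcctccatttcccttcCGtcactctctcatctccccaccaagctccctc
Slc32a1: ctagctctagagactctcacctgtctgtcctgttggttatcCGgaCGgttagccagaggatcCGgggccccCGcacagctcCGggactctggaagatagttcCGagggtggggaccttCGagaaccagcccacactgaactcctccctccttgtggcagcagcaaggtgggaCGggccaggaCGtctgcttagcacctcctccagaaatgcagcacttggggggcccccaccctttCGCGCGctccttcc
Gabbr1: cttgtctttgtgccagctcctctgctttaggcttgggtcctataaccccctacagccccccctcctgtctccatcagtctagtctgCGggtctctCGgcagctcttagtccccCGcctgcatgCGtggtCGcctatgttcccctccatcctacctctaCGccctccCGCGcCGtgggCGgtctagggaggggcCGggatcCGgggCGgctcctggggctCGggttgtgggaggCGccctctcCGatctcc
Gphn: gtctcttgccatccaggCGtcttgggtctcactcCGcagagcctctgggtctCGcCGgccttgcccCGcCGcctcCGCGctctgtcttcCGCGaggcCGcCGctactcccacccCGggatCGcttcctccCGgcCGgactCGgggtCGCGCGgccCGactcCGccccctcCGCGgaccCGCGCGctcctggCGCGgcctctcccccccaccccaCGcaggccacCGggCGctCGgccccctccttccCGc
The window held 13 CG dinucleotides for Gad2, 12 for Slc32a1, 16 for Gabbr1 and 34 for Gphn. Of the 32851 RefSeq mouse promoters of the same length, 31.5% held at least 13, 33.5% at least 12, 25.4% at least 16 and 3.53% at least 34. The median was 6 over all promoters and 9 over the 35 promoters of the 28 genes of the set that had an entry. These counts are a description of the sequence, and they were not related to the array values.

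Each array listed 43020 spots of 39429 probes after removal of control spots. The 75th percentile of the processed signal, which is the brightness of a spot after background subtraction, was 905 and 971 on the WT and KO-labelled spinal cord arrays. It was 68.0 on the WT duodenum array and 323 on the KO-labelled one, and the share of probes well above background ran from 51.6% on the WT duodenum array to 77.4% on the KO-labelled spinal cord array. With so few arrays, no value can be given more than the precision of a single hybridisation. The labelled organs were checked against defining markers, and all 10 intestinal epithelium markers were well above background on both duodenum arrays and 4 of 10 on each spinal cord array. All 10 pan-neuronal markers were above background on both spinal cord arrays, and 7 and 10 of them also on the WT and KO-labelled duodenum arrays. The probe of Ip6k2 itself gave a signal of 452 on the WT and 1320 on the KO-labelled spinal cord array, so it was not lower where the label says knockout. In the duodenum its signals were 139 and 572, a difference of −0.21 after scaling. The files do not say whether this probe lies in the deleted exon, and genotypes are therefore given as labelled. In the spinal cord, 9 of 10 skeletal muscle markers, 4 of 7 Schwann cell markers and 4 of 6 blood markers were at least 2-fold higher on the KO-labelled array, while the pan-neuronal median differed by −0.073 on the log2 scale.

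**Figure D1:**
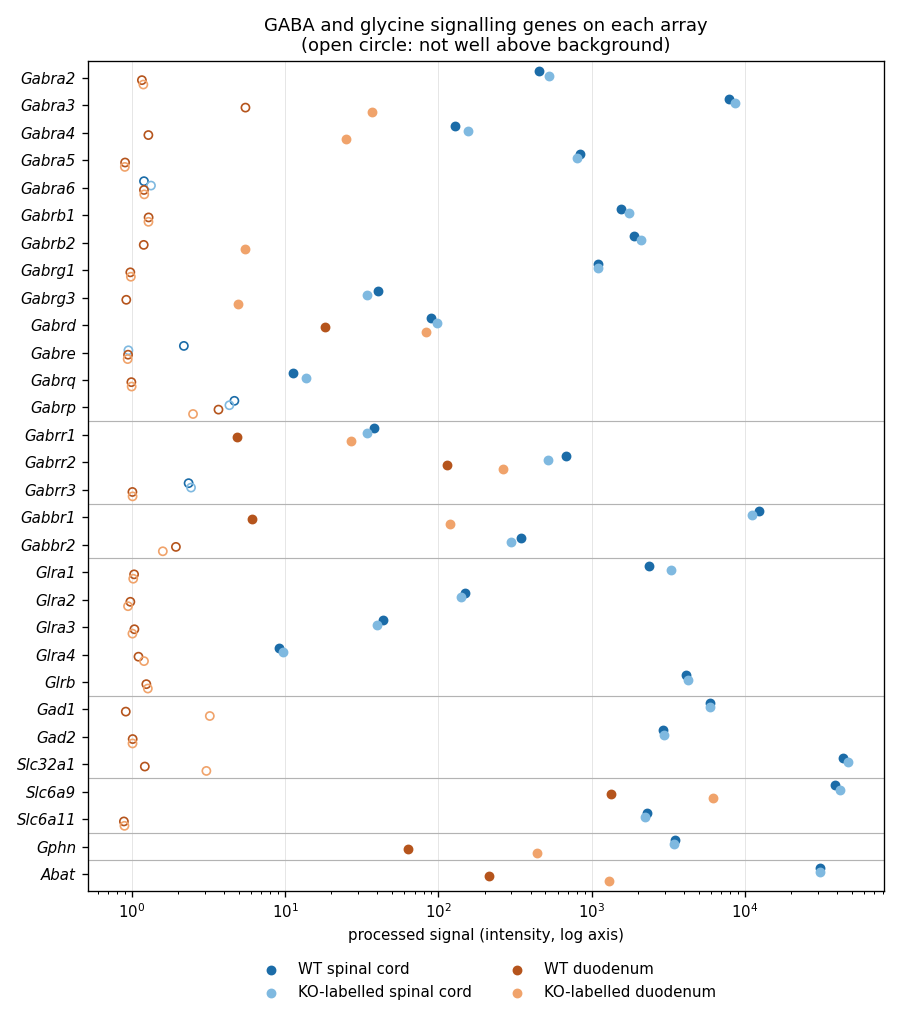
Processed signal (intensity, log axis) of the 30 genes with a probe on each of the 4 arrays, grouped by role, with filled circles well above background and open circles not. In the spinal cord 26 of 30 were filled on each array, whereas 7 were filled on the WT and 11 on the KO-labelled duodenum array, and the signal is not scaled between arrays.

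In the spinal cord, 26 of the 30 genes (86.7%) were well above background on both arrays, beside 75.5% of all genes on the WT and 76.1% on the KO-labelled array. In the duodenum, 7 genes (23.3%) reached this level on the WT array and 11 (36.7%) on the KO-labelled array, beside 51.8% and 65.6% of all genes. A gene with several probes was read from the brightest of them. By this reading 15 genes were measured on both spinal cord arrays and on neither duodenum array. A further 4, Gabra3, Gabra4, Gabrb2 and Gabrg3, were also measured on the KO-labelled duodenum array, which was the brighter of the duodenum pair. Those measured on all 4 arrays were the GABA-A subunit Gabrd, the rho subunits Gabrr1 and Gabrr2, the GABA-B subunit Gabbr1, the glycine transporter Slc6a9, the scaffold Gphn and Abat, the enzyme that breaks GABA down. Gabra6, Gabre, Gabrp and Gabrr3 were not well above background on any of the 4 arrays, with no signal over 4.66, so these arrays give no level for them. Gabra6 is best known from cerebellar granule cells.

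The genes of transmitter synthesis and loading set the organs far apart. Gad1, one of the glutamate decarboxylases, gave signals of 5965 and 5901 on the WT and KO-labelled spinal cord arrays and 0.910 and 3.22 on the WT and KO-labelled duodenum arrays. The other decarboxylase, Gad2, gave 2938 and 2949 in the spinal cord and 1.01 and 1.01 in the duodenum. For Slc32a1, the vesicular transporter shared by GABA and glycine, the signals were 43902 and 46927 in the spinal cord and 1.21 and 3.06 in the duodenum. No duodenum value of these probes was well above background, and in the spinal cord the genotypes lay close together for all of them. A second probe of Slc32a1 gave 307 and 326 in the spinal cord, 1.51 on the WT duodenum array and 6.64 on the KO-labelled one, where it was well above background, so in the duodenum this transcript was above background by 1 of its probes on 1 array.

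The spinal cord comparison asked whether these genes differed between the genotypes. With 1 array on each side it has no test, and a gene was counted only where its scaled values differed at least 2-fold. None of the 26 measured genes did so in either direction, where 2.28% of the 25216 genes measured on at least 1 of these arrays were at least 2-fold higher and 0.865% at least 2-fold lower on the KO-labelled array. With normexp background correction 7 of them were at least 2-fold lower, when the median gene differed by −0.45. Of the 26, 9 had the higher value on the KO-labelled array and 17 the lower one. Over the 24166 genes measured on both arrays, 9975 were higher and 14191 lower, so the set leaned the same way as all genes. The median difference of the 26 was −0.099 on the log2 scale, beside −0.038 for these 24166 genes. A difference within 0.25 was found for 20 of 26 genes (76.9%) and for 73.7% of all genes, so the share of small differences was near the background. The error given with a difference is a technical standard deviation (SD) from probes spotted 10 times on each array, which covers spots and not animals.

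**Figure D2:**
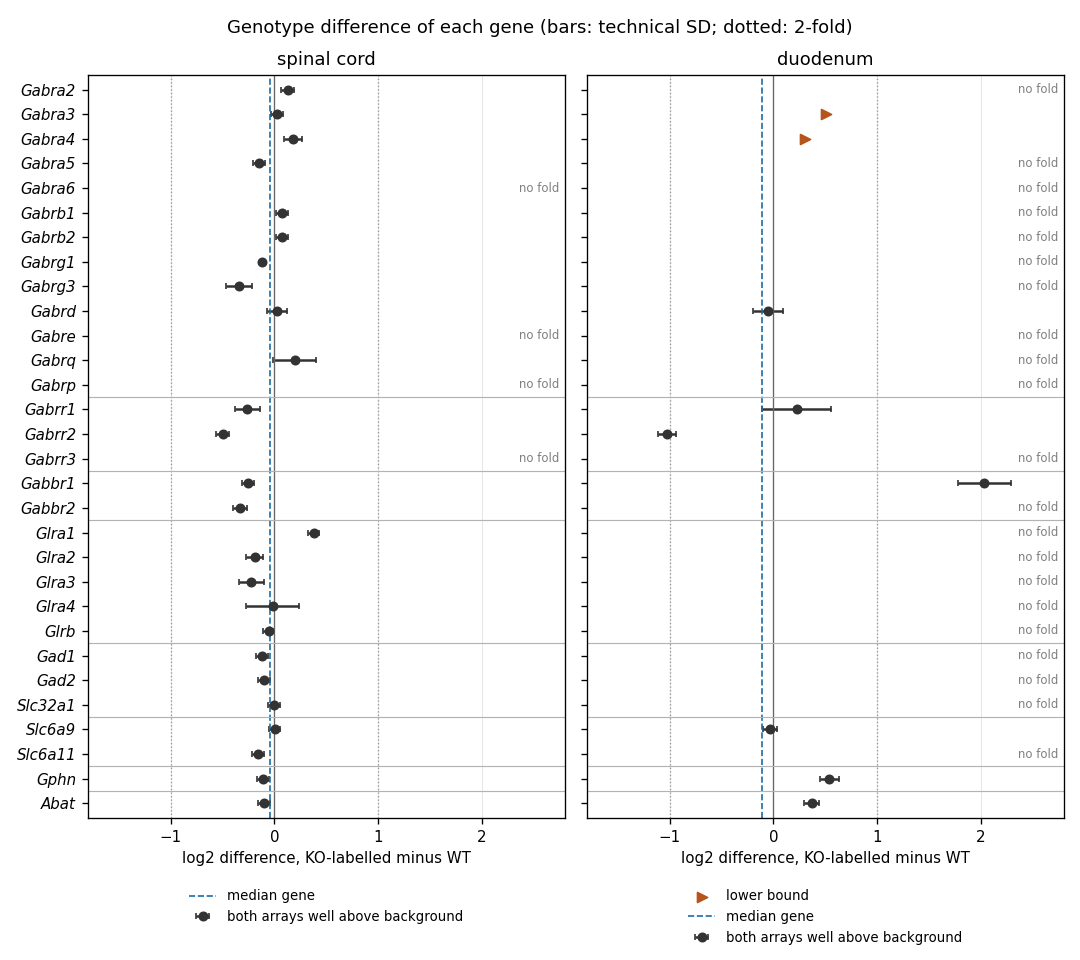
Log2 difference, KO-labelled minus WT, of each gene in the spinal cord (left) and the duodenum (right), with bars for the technical SD, triangles for lower bounds, dotted lines at 2-fold and a dashed line at the median gene. All 26 spinal cord values lie between −0.50 and 0.38, and the 7 duodenum values measured on both arrays lie between −1.03 and 2.03.

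Among the makers and loaders of transmitter, the spinal cord differences were −0.12 for Gad1 (technical SD 0.058), −0.096 for Gad2 (0.057) and −0.0055 for Slc32a1 (0.057). The second Slc32a1 probe differed by −0.013. Clearance and breakdown were as close. Slc6a9, the glycine transporter of glia, gave signals of 39019 and 41906 on the WT and KO-labelled arrays, a difference of 0.0013 (technical SD 0.057), and 0.061 for its second probe. Slc6a11, a GABA transporter of astrocytes, differed by −0.16 (0.057) and Abat by −0.10 (0.057). The scaffold Gphn gave 3482 and 3460, a difference of −0.11 (0.057). All of these lay under 3 technical SDs.

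The glycine receptor subunits differed among themselves. Glra1, the alpha subunit of adult spinal glycine receptors, had the largest difference on the higher side in the set, with signals of 2380 and 3318 on the WT and KO-labelled arrays and a log2 difference of 0.38 (technical SD 0.057). Its second probe gave 799 and 938, a difference of 0.13, so the size rests on the probe used. Glrb, the beta subunit that binds gephyrin, gave 4134 and 4266, a difference of −0.056 (0.057). The alpha subunits Glra2 and Glra3 differed by −0.19 (0.081) and −0.22 (0.12), and Glra4, with signals of 9.12 and 9.67, by −0.017 (0.26).

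The GABA-A subunits lay on both sides of 0, with 7 of 10 measured genes higher on the KO-labelled array and a median of 0.048. Of all genes, 9975 of 24166 were higher. The 7 of 10 depended on the background. With normexp background correction Gabra2, Gabra4, Gabrd and Gabrq turned to −0.24, −0.90, −1.28 and −2.29, while Gabra3, Gabrb1 and Gabrb2 stayed positive. With flagged local backgrounds also replaced, Gabra3, Gabrd and Gabrq turned to −0.035, −0.030 and −0.13, and the rest of the 7 stayed positive. The alpha subunits gave differences of 0.13 for Gabra2 (technical SD 0.063), 0.026 for Gabra3 (0.057), 0.18 for Gabra4 (0.085) and −0.15 for Gabra5 (0.062). Both beta subunits measured were alike, at 0.074 for Gabrb1 (0.055) and 0.070 for Gabrb2 (0.057). Gabrg1, whose probe was spotted 10 times, had signals of 1103 and 1093 and differed by −0.11 (0.018), whereas its second probe differed by 0.12. The second probe of Gabra3 also went the other way, at −0.22. Gabrg3 differed by −0.34 (0.12), with −0.43 for its second probe, and its signals were 40.4 and 34.3. Gabrd, a subunit of receptors outside the synapse, differed by 0.024 (0.095), and Gabrq, with signals of 11.2 and 13.8, by 0.20 (0.21).

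The measured rho and GABA-B subunits all had lower values on the KO-labelled array. Gabrr2, which forms GABA-gated channels of the rho type, had the largest difference on the lower side in the set, with signals of 680 and 518 and a log2 difference of −0.50 (technical SD 0.062). Gabrr1 gave 38.0 and 34.0, a difference of −0.26 (0.12). Gabbr1, the GABA-binding subunit of the GABA-B receptor, gave 12455 and 11175, a difference of −0.26 (0.057), while its other probes differed by 0.022 and −0.082. Its partner Gabbr2 gave 348 and 297, a difference of −0.33 (0.065), with −0.13 and −0.027 for the other probes. For both GABA-B subunits the other probes lay nearer to 0. All of these differences were under 2-fold.

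**Figure D3:**
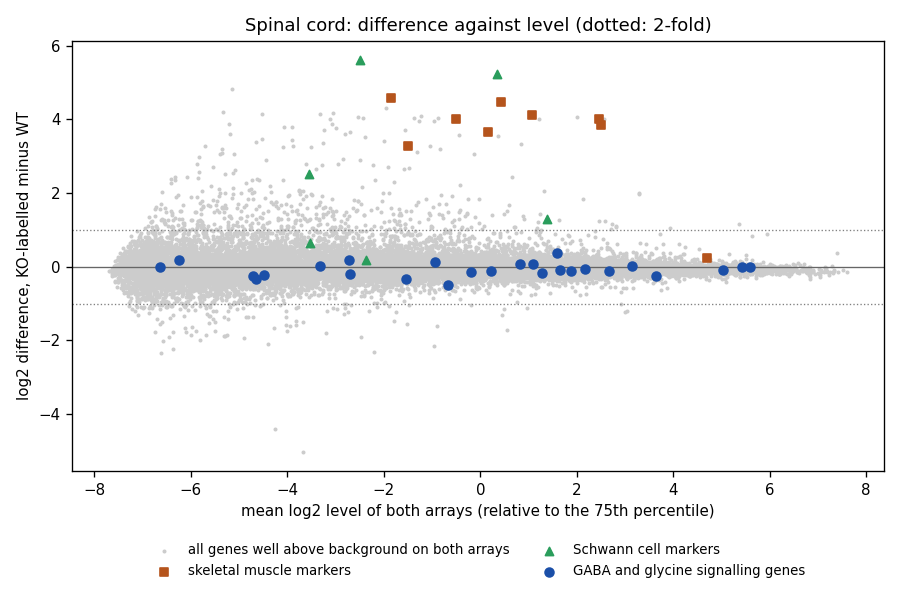
Log2 difference, KO-labelled minus WT spinal cord, against the mean log2 level of both arrays relative to the 75th percentile, with 1 grey point per gene well above background on both arrays and dotted lines at 2-fold. The 26 GABA and glycine signalling genes (blue) lie between the dotted lines, while skeletal muscle markers (orange squares) and Schwann cell markers (green triangles) reach log2 differences of 4.58 and 5.61.

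Markers of neurons and astrocytes were compared between the same arrays. The median difference was −0.073 for the 10 pan-neuronal markers, −0.20 for transcription factors of spinal inhibitory neurons (8 measured on both arrays), −0.24 for 6 excitatory neuron markers and −0.098 for 8 astrocyte markers, beside −0.038 for all genes. The excitatory markers ran from −0.90 to 0.17 with 3 of 6 within 0.25, and of the inhibitory transcription factors 5 of 8 lay within 0.25. None of these lists held a gene at least 2-fold apart, whereas medians of 4.02 for skeletal muscle, 1.91 for Schwann cells and 1.18 for blood were found for other cells. Markers of the leptomeninges, a list of 7 genes chosen after the values were seen, had a median of 0.86 with 3 of 7 at least 2-fold higher. The arrays measure a whole tissue, in which fewer cells of a type and less RNA per cell cannot be told apart.

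Among 34 other genes of inhibitory synapses and of GABA and glycine metabolism and transport, 3 were at least 2-fold higher on the KO-labelled spinal cord array. At least 2-fold lower were 0, and the median difference was −0.054. Of all genes measured on at least 1 of these arrays, 2.28% were at least 2-fold higher and 0.865% at least 2-fold lower. The 3 were transporters. Slc6a12, which carries betaine and GABA, gave signals of 36.4 and 96.3 on the WT and KO-labelled arrays, a difference of 1.30. Slc6a13, a GABA transporter known from the leptomeninges and liver, gave 246 and 617, a difference of 1.22. Slc38a5, a transporter of glutamine and glycine, gave 210 and 553, a difference of 1.29. The leptomeningeal, muscle, Schwann cell and blood markers were higher on the same array, and their part in these differences was not tested. None of the 3 transporters was followed under the alternative processings. Genes of the set with signals near that of Slc6a12 moved far under normexp, Gabrr1 from −0.26 to −1.87 and Gabrg3 from −0.34 to −1.87. The other 31 genes, among them Nlgn2 of the postsynaptic membrane and the chloride transporters Slc12a2 and Slc12a5, differed by less than 2-fold.

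The same question was put to the duodenum, where the WT array was dimmer than the KO-labelled one and 7 genes of the set were measured on both. Of the 11 genes measured on at least 1 of these arrays, 1 was at least 2-fold higher on the KO-labelled array, Gabbr1, and 1 at least 2-fold lower, Gabrr2. Of the 21434 genes measured on at least 1 of the arrays, 7.2% were at least 2-fold higher and 11.9% at least 2-fold lower. The median of the 7 genes was 0.22, beside −0.11 for the 16814 genes measured on both arrays, but it turned to −0.31 under normexp, when that of all genes was −0.18.

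Gabbr1 gave a signal of 6.10 on the WT and 119 on the KO-labelled duodenum array, a log2 difference of 2.03 after scaling (technical SD 0.26). The WT signal lay just over 4.29, the lowest signal well above background on that array. Its other probes gave 3.48 and 5.15 on the WT array, neither well above background, and 10.8 and 9.58 on the KO-labelled array, and allow no fold in this direction. With another background correction (normexp) the difference was −0.31, so the direction of Gabbr1 in the duodenum depends on the probe and on the background. Gabrr2 gave 114 and 265, a difference of −1.03 (technical SD 0.086) and of −0.91 relative to the median gene. The difference of Gabrr2 was 1.98 with the arrays scaled on spiked-in control probes, when the median gene differed by 2.89.

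The other genes measured on both duodenum arrays differed by less than 2-fold. Gphn gave 63.6 and 439, a difference of 0.54 (technical SD 0.088), and Abat gave 213 and 1306, a difference of 0.37 (0.074). Slc6a9 gave 1335 and 6198, a difference of −0.032 (0.067), and −0.017 for its second probe. Gabrd gave 18.1 and 82.8, a difference of −0.054 (0.15), and Gabrr1 gave 4.84 and 26.8, a difference of 0.22 (0.33). All these raw signals were higher on the KO-labelled array, whose 75th percentile was higher too. Gabra3 and Gabra4 were measured on the KO-labelled array only, at signals of 37.1 and 25.1. After scaling, their lower bounds were 0.51 and 0.30 on the log2 scale, with technical SDs of 0.31 and 0.32. Gabrb2 and Gabrg3, at 5.50 and 4.91 on that array, allow no fold.

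Blood markers differed widely between the duodenum arrays, with 6 of 6 at least 2-fold lower on the KO-labelled array and a median of −3.39. The pan-neuronal median was −0.65 over 7 genes measured on both arrays, of which Syp differed by −4.14, and that of enteric neuron and glia markers was −0.13 over 6. The part of these cells in the differences above was not tested. Of the 34 other pathway genes, 30 were measured on at least 1 duodenum array. On the KO-labelled array 10% of these were at least 2-fold higher and 13.3% at least 2-fold lower, near the shares of all genes given above. The 3 higher genes were Trak1 (1.48), Slc6a12 (1.17) and Aldh9a1 (1.19). The 4 lower genes were Hap1 (−3.13), Lhfpl4 (−2.73), Shisa7 (−1.13) and Shmt2 (−1.23). Lhfpl4 and Shisa7 are auxiliary proteins of GABA-A receptors, and Aldh9a1 and Shmt2 are enzymes of GABA and of glycine metabolism. Slc6a12 was thus at least 2-fold higher on the KO-labelled array in both organs, with duodenum signals of 5.56 and 59.4. The WT duodenum signal lay just over 4.29, the lowest signal well above background on that array. Slc6a12 was not followed under the alternative processings.

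The organs were compared by a linear model with organ and genotype over the 4 arrays (limma), in which each organ has 2 arrays of different genotype and 1 residual degree of freedom remains, shared across genes. Its p-values weigh the organ difference against the change of that difference between the 2 genotypes. They do not measure a spread between replicate arrays or animals, since each organ and genotype had 1 array. The same holds for the SEs given below. Of the 26 genes tested, 20 were lower in the duodenum and 1 was higher, where 23.0% of the 24792 genes tested were lower and 25.7% higher. A gene entered this test if it was measured on both arrays of at least 1 organ. For 19 of the 26 that organ was the spinal cord alone, so the filter favoured the lower direction and the count is a description. With all 4 arrays required to be well above background, 7 genes were tested, 4 were lower and 2 higher. Their median difference was −1.15 on the log2 scale beside 0.53 for all genes. The shares of all genes called under this stricter filter were not counted, so the 4 and the 2 are a description. Of the 21 genes called, 13 were also called under every alternative processing that tested them, Gabra3, Gabra5, Gabrb1, Gabrb2, Gabrg1, Gabbr1, Glra1, Glrb, Gad1, Gad2, Slc32a1, Slc6a11 and Abat. Of these 13, only Gabbr1 and Abat were tested where all 4 arrays had to be well above background. The rest entered every test through the spinal cord, so their list does not show that the calls are free of the filter.

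**Figure D4:**
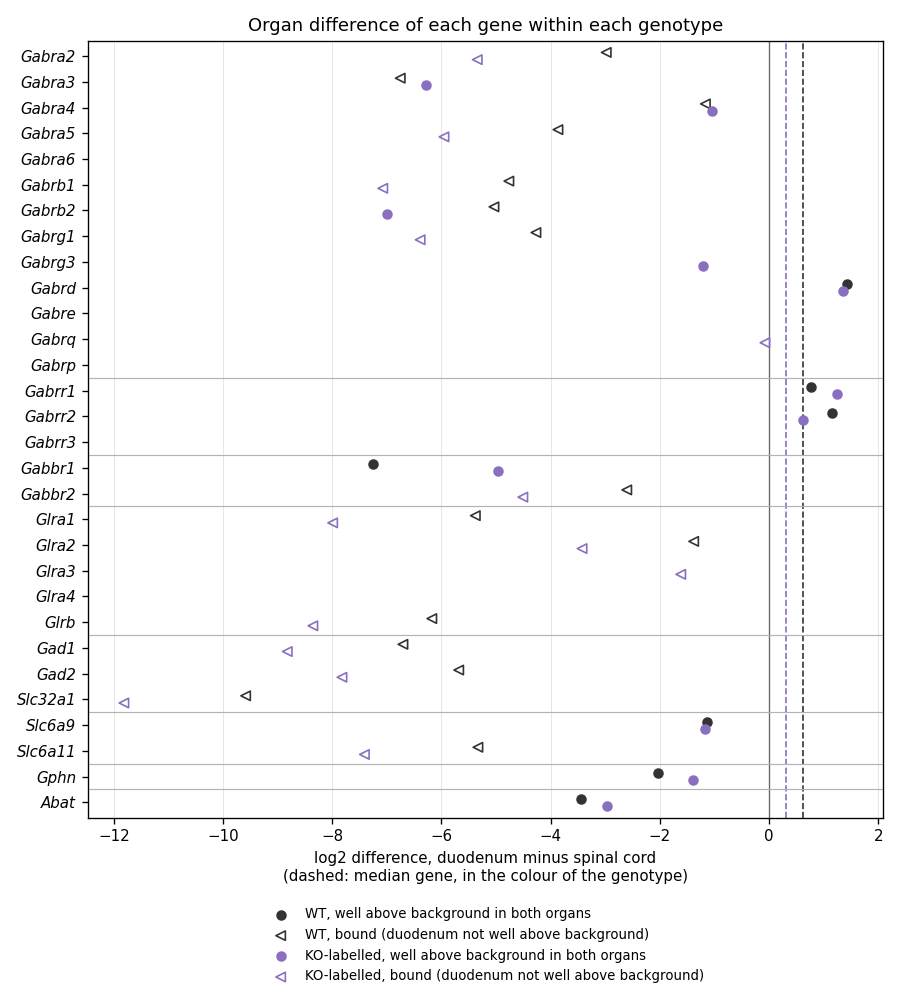
Log2 difference, duodenum minus spinal cord, of each gene within the WT arrays (black) and within the KO-labelled arrays (violet), with filled circles where both organs were well above background and open triangles for bounds where the duodenum was not. Dashed lines mark the median gene of each genotype (0.63 and 0.30), and Gabrd, Gabrr1 and Gabrr2 are the genes to the right of 0. All 3 turn to the left under quantile normalization within each organ and under scaling on spiked-in control probes.

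Where the duodenum arrays were not above background, the spinal cord level is given as at least so many fold higher, from the mean of its arrays and the higher of the probe's own value and the lowest value well above background on each duodenum array. Slc32a1 was at least 1663-fold higher in the spinal cord by its brightest probe (adjusted p = 3.78e-05), Gad1 at least 217-fold (6.81e-05) and Gad2 at least 108-fold (0.00018). Of the glycine receptor subunits, Glrb was at least 154-fold (0.00017), Glra1 at least 103-fold (0.000275), Glra2 at least 5.29-fold (0.002) and Glra3 at least 1.53-fold higher (0.0132). The difference of Glra3 turned positive (0.50) under normexp, and that of Glra2 (0.27) under normexp with flagged local backgrounds replaced. The second probe of Slc32a1, measured on both KO-labelled arrays, was 16.3-fold higher in the spinal cord there, far below the bound of the first. These bounds depend on the brightness of each probe and do not rank the genes. The adjusted p-values printed with bounds, here and for the genes that follow, are not tests of the bounds. They come from the limma model, which took duodenum values below background as they were read. Its estimate was 3727-fold for Slc32a1 and 6.46-fold for Glra3. The lowest scaled value well above background was −3.99 on the WT and −6.22 on the KO-labelled duodenum array. Glra4 and Gabrq, with spinal cord signals of 9.12 to 13.8, had bounds under 1 and were not called (adjusted p = 0.644 and 0.26).

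Of the GABA-A subunits, Gabrb1 was at least 60.5-fold higher in the spinal cord (adjusted p = 0.000337), Gabrg1 at least 40.2-fold (0.00031), Gabra5 at least 30.1-fold (0.000356) and Gabra2 at least 17.9-fold (0.000832). The GABA transporter Slc6a11 was at least 82.8-fold higher (0.000184) and Gabbr2 at least 11.8-fold (0.00172). For the 4 subunits measured in the duodenum on the KO-labelled array alone, the difference within the KO-labelled arrays was −6.27 for Gabra3, −7.00 for Gabrb2, −1.05 for Gabra4 and −1.22 for Gabrg3. All 4 were called lower in the duodenum, with adjusted p from 0.000132 (Gabrb2) to 0.0366 (Gabrg3), but Gabra4 and Gabrg3 turned to 0.17 and 0.55 under normexp background correction. These 4 entered the limma test through the spinal cord alone, so the filter favoured the lower direction. The model also took their WT duodenum values below background as they were read.

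The genes measured on all 4 arrays showed a graded pattern. Gabbr1 was lower in the duodenum, with a difference of −6.11 ± 0.64 (SE, limma, n = 4 arrays, adjusted p = 0.000759), with −7.26 within WT and −4.97 within KO-labelled arrays. Abat was 9.23-fold lower (log2 −3.21 ± 0.44, adjusted p = 0.00231) and Gphn 3.28-fold lower (−1.71 ± 0.45, adjusted p = 0.0232). Slc6a9, at −1.14 within WT and −1.17 within KO-labelled arrays, did not pass the test (−1.15 ± 0.43, adjusted p = 0.0706). Gabrd was the gene called higher in the duodenum, by 2.62-fold (1.39 ± 0.43, adjusted p = 0.0402), but its difference was −1.27 under quantile normalization within each organ and −2.06 under scaling on spiked-in controls. Relative to the median gene, Gabrd was higher by 0.80 within WT and by 1.05 within KO-labelled arrays. Gabrr1 (1.00 ± 0.45, adjusted p = 0.109) and Gabrr2 (0.89 ± 0.45, adjusted p = 0.147) were not called. Both turned negative under quantile normalization within each organ and under scaling on spiked-in controls. Quantile normalization within each organ moved the median of all genes to −2.63, and scaling on the control probes moved it to −3.40.

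The lower values in the duodenum stood beside those of neurons in general, since 9 of 10 pan-neuronal markers were lower there, with a median of −6.38 within the KO-labelled arrays, where all 10 were measured. Astrocyte markers were lower for 7 of 8, and enteric neuron and glia markers were lower for 7 and higher for 3 of 10. Of the 34 other pathway genes, 17 were lower and 7 higher in the duodenum. The chloride exporter of neurons, Slc12a5, differed by −10.32 within the KO-labelled arrays, with spinal cord signals of 46354 and 45031 and a duodenum signal of 11.7 on the KO-labelled array, not well above background on the WT one. The part of the neuron content of each organ in these differences was not tested.

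Many of the subunit genes lie side by side in the genome. By the order of protein-coding genes in the RefSeq annotation, Gabrg1 and Gabra2 are neighbours, as are Gabra4 and Gabrb1, with 1 gene between these pairs. Gabra6 lies next to Gabrb2, Gabrg3 next to Gabra5, Gabrr1 next to Gabrr2 and Gabra3 next to Gabrq. Of the 6 pairs of immediate neighbours, 5 had both genes well above background on both spinal cord arrays. Of single genes, 26 of the 30 in the set were so, beside 75.5% and 76.1% of all genes on the WT and KO-labelled array. The count of pairs is therefore a description. The exception was the pair of Gabra6 and Gabrb2, in which Gabrb2 was well above background in the spinal cord at signals of 1879 and 2117, whereas Gabra6 gave 1.20 and 1.33. In the spinal cord, the genotype difference was −0.26 and −0.50 for the neighbours Gabrr1 and Gabrr2, and −0.34 and −0.15 for Gabrg3 and Gabra5. For Gabra3 and Gabrq it was 0.026 and 0.20. It was −0.11, 0.13, 0.18 and 0.074 along the run from Gabrg1 through Gabra2 and Gabra4 to Gabrb1. The second probes of Gabrg1 and Gabra3 went the other way, at 0.12 and −0.22.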

How the data were processed

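Total RNA of spinal cord and duodenum was labelled with Cy3 and hybridised to 4 1-colour Agilent mouse arrays, 1 per organ and genotype as the labels give them. The authors deposited scanner output (Agilent Feature Extraction 11.5.1.1, per the file headers), with raw spot and background intensity, flags, and a background-subtracted and spatially detrended intensity termed the processed signal. They also deposited a table of log2 values whose normalization is not given in the sources used here. Compared with the scanner files, it held log2 signals normalized by quantiles over the 4 arrays (median gap at most 0.00226).

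The main value was log2 of the processed signal minus the 75th percentile of its array, without control and outlier spots (89 to 133 per array). Spots of a probe were averaged, and a gene with several probes was read from the one whose mean log2 value was highest. Accessions were named through RefSeq (GRCm38.p6), and 25868 of 26391 NM probes matched. A probe well above background on 1 array only gave a bound. The technical SD came from the 50 probes nearest in brightness among 399 spotted 10 times. Genotype calls were 2-fold differences. Organs were compared with limma 3.58.1 (R 4.3.3), additive in organ and genotype, with Benjamini-Hochberg adjustment over all genes at 0.05. The scripts were tested on simulated data. Genotype and array cannot be told apart. Alternatives covered background correction, normalization, probe choice, filters, the fold and the genotype term, with results below. All genes of the set are named, and of other lists those past 2-fold, at most 5 in each direction. The genes of the set and all lists were chosen with earlier results of these data known.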

Additional observations from a re-analysis of the deposited data

Results flagged for a closer look

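Of the 7 genes measured on all 4 arrays, 6 had genotype differences of opposite sign in the 2 organs, and for 3 of these both differences were larger than 1 technical SD. The share of all genes with opposite signs was not counted, so it is not known whether these counts are unusual. Slc6a9 is among the 6 with differences of only 0.0013 in the spinal cord and −0.032 in the duodenum. The difference between the organs was not tested. For Gabbr1 the difference, KO-labelled minus WT, was −0.26 in the spinal cord and 2.03 in the duodenum, 2.29 apart. For Gphn it was −0.11 and 0.54, 0.65 apart, and for Abat −0.10 and 0.37, 0.47 apart. With normexp background correction the spinal cord values were 0.15 for Gabbr1, 0.17 for Gphn and 0.28 for Abat, and the duodenum value of Gabbr1 was −0.31, so the opposite directions of Gphn and Abat were lost and those of Gabbr1 were exchanged.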

How the results depend on the processing

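In the spinal cord the count of genes at least 2-fold higher stayed at 0 under all alternatives, and the count lower in the duodenum than in the spinal cord stayed between 15 and 26 (19 and 21 by the 2-fold rule within 1 genotype) except where every array had to be well above background (4 lower, 2 higher). The count at least 2-fold lower in the spinal cord was 7 with normexp background correction, when the median gene differed by −0.45. It was 0 with flagged local backgrounds also replaced, and 1 without a filter on dim probes. In the duodenum, the count at least 2-fold higher was 0 with normexp, 0 with normexp after replacing flagged local backgrounds, 0 with the mean of all probes, 10 with scaling on spiked-in control probes, 3 in the deposited table and 2 without a filter. The count at least 2-fold lower was 0 with quantile normalization of the 4 arrays, 0 with spiked-in controls, 0 in the deposited table and 18 without a filter. Gabbr1 turned to −0.31 under both normexp settings and Gabrr2 to 1.98 with spiked-in controls. The count higher in the duodenum than in the spinal cord was 0 with normexp, 6 with flagged backgrounds replaced, 0 with quantile normalization within each organ, 0 with spiked-in controls, 2 without the genotype term and 2 without a filter. By the 2-fold rule it was 2 within WT and 2 within KO-labelled arrays. Organ differences turned under normexp for Gabra4 (0.17), Gabrg3 (0.55) and Glra3 (0.50), and with flagged backgrounds replaced for Gabra4 (0.68), Gabrg3 (1.42), Gabrq (1.86), Glra2 (0.27), Glra3 (1.36) and Glra4 (1.96). They turned under quantile normalization within each organ for Gabrd (−1.27), Gabrr1 (−1.66) and Gabrr2 (−1.78), and with spiked-in controls for Gabrd (−2.06). Genes called neither in the main analysis nor under the alternative are left out of these lists. Among them, Gabrr1 and Gabrr2 also turned negative with spiked-in controls. Scaling on spiked-in controls shifts all genes of an array alike, and the median of all genes was then −3.40, and −2.63 under quantile normalization within each organ, beside 0.050. The cause of the changes under normexp was not tested. No paired analysis was possible because the labels carry no replicate numbers, and the organ model already holds genotype as a term. Signals near the lowest value well above background, 4.29 to 4.47, limit what the duodenum arrays can show.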
